A study of Homo sapiens with 8 samples.

Results

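The genes described here are the CD-numbered surface antigen genes of KBM7 cells, a line from chronic myeloid leukaemia whose near-haploid karyotype allows a gene to be disabled by 1 gene-trap insertion. They were taken from the platform annotation as the gene symbols that consist of CD, digits and at most 1 letter. Of 74 such symbols, CD34, CD40, CD58, CD74 and CD83 were left out, which gave 69 genes of the 18132 measured. Each gene is represented by the probe set of that gene alone with the highest mean over the 8 Affymetrix arrays, and values are log2 intensities. A gene was called expressed in wild-type (WT) cells where the mean of the unstimulated WT arrays was at least 6, an intensity of 64.

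The 8 arrays covered 7 conditions of the same KBM7 line. JAK2 mutant cells carry the trap in the gene of a kinase that serves the IFN-gamma receptor, and TNFRSF1A mutant cells in the gene of TNFR1, the main TNF-alpha receptor. JAK2 mutant and WT cells were left unstimulated or received 100 ng/ml IFN-gamma over 6 hours, and TNFRSF1A mutant and WT cells were left unstimulated or received 10 ng/ml TNF-alpha over 6 hours. Of the unstimulated WT arrays, replicate 1 belongs to the IFN-gamma arm and replicate 2 to the TNF-alpha arm, and each remaining condition had 1 array. Each mutant is taken here as 1 cell line with 2 arrays, so the trap and any other property of that line cannot be told apart, and differences have no replicate check.

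CD numbers name molecules on the surface of leukocytes that sets of monoclonal antibodies recognise, so the numbers follow the order of discovery and not function. The genes include tetraspanins, which organise other membrane proteins into patches, regulators that shield cells from complement, ligands and receptors of lymphocyte signalling, and chains of the antigen receptors. Clinical typing of leukaemias reads combinations of these proteins to assign a lineage. The arrays measured RNA and not surface protein.

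Of the 69 genes, 40 (58.0%) were expressed in WT cells, against 60.4% of all 18132 genes. Of these 40, 14 read at least 10 and 3 at least 12. Probe sets bind with different strength, so the readings of different genes give bands of signal and not an order of RNA amounts. The members nearest to the level of 6 were CD79B at 6.06 and CD300E at 6.11 inside it, and CD22 at 5.93 and CD6 at 5.68 outside it. Of the 29 genes below it, 28 lay in the background range on all 8 arrays, that is, at values below the upper quartile of 23 background probe sets, 5.76 to 6.04 over the arrays. CD22 was the exception, above it on 4 arrays.

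The brightest readings came from adhesion genes. CD164, which encodes the sialomucin endolyn of haematopoietic progenitors, averaged 13.03 ± 0.38 in unstimulated WT cells (SD, n = 2). CD99, an adhesion gene of leukocyte migration, averaged 12.49 ± 0.24 and CD44, the hyaluronan receptor gene, 12.39 ± 0.36. CD109, a GPI-anchored protein gene, averaged 11.63 ± 0.23, while CD248 read 6.14 ± 0.09. The other 4 adhesion genes, CD2, CD96, CD177 and CD226, lay in the background range.

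All 7 tetraspanin genes were expressed, with WT means of 7.92 for CD82 to 11.97 for CD63, a marker of late endosomes. Between them stood CD53 at 11.16 ± 0.40, CD9 at 10.34 ± 0.25, CD81 at 10.11 ± 0.07, CD151 at 9.59 ± 0.02 and CD37 at 8.32 ± 0.27. CD63 was the steadiest of the tetraspanin genes, with a range of 0.12 over the 8 arrays, whereas CD9 ranged over 4.27. Of the 6 genes grouped as regulators of complement and phagocytosis, 4 were expressed. CD46, which marks C3b for cleavage, averaged 11.91 ± 0.47, CD47, the signal against phagocytosis, 11.85 ± 0.16, CD59, the inhibitor of the membrane attack complex, 10.39 ± 0.26 and CD55, which speeds the decay of C3 convertases, 9.21 ± 0.39.

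Of 12 costimulation and checkpoint genes, 8 were expressed. CD86, a ligand of CD28 and CTLA4, averaged 9.57 ± 0.20, the B7 family gene CD276 8.94 ± 0.02, and CD244, the receptor of CD48, 8.66 ± 0.03. CD70, the ligand of CD27, averaged 8.33 ± 0.35, CD48 8.24 ± 0.58, the CD28 and CTLA4 ligand gene CD80 7.12 ± 0.64, CD200 7.11 ± 0.52 and CD84 6.12 ± 0.42. The receptor genes CD27, CD28 and CD160 lay in the background range, and so did CD274, the gene of PD-L1, which read 5.34 to 5.38 in unstimulated WT cells.

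CD3D, a chain of the T cell receptor complex, averaged 9.62 ± 0.40, and its second probe set read 7.91 and 7.76 on the unstimulated WT arrays, while CD3E, CD3G and CD247, further chains of that complex, averaged 5.64, 4.35 and 5.38. CD8B averaged 9.23 ± 0.02 on 1 of its 3 probe sets and lay in the background range on the other two, and CD8A averaged 5.08. CD69, an early activation gene, averaged 11.57 ± 0.23, CD52, the small GPI-anchored antigen that alemtuzumab binds, 11.01 ± 0.62, CD7 8.03 ± 0.08 and CD4 7.21 ± 0.20. Of 6 B cell genes, CD72, an inhibitory coreceptor, averaged 7.85 ± 0.37, and CD180, CD79A and CD79B lay between 6.06 and 6.41. CD38, an ectoenzyme gene, averaged 3.94.

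Of 11 myeloid and scavenger genes, 5 were expressed. CD300A, an inhibitory receptor of myeloid cells, averaged 11.30 ± 0.16 and CD68, a lysosomal glycoprotein gene of macrophages, 7.57 ± 0.38, while CD300C, CD300E and the transcobalamin receptor gene CD320 read 6.11 to 6.41. CD14, CD163, CD36, CD207, CD209 and CD5L, whose product is secreted by macrophages, lay in the background range. Of the CD1 genes of lipid antigen presentation, CD1E alone was expressed, at 6.50 ± 0.18, and the other 4 were not.

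**Figure D1:**
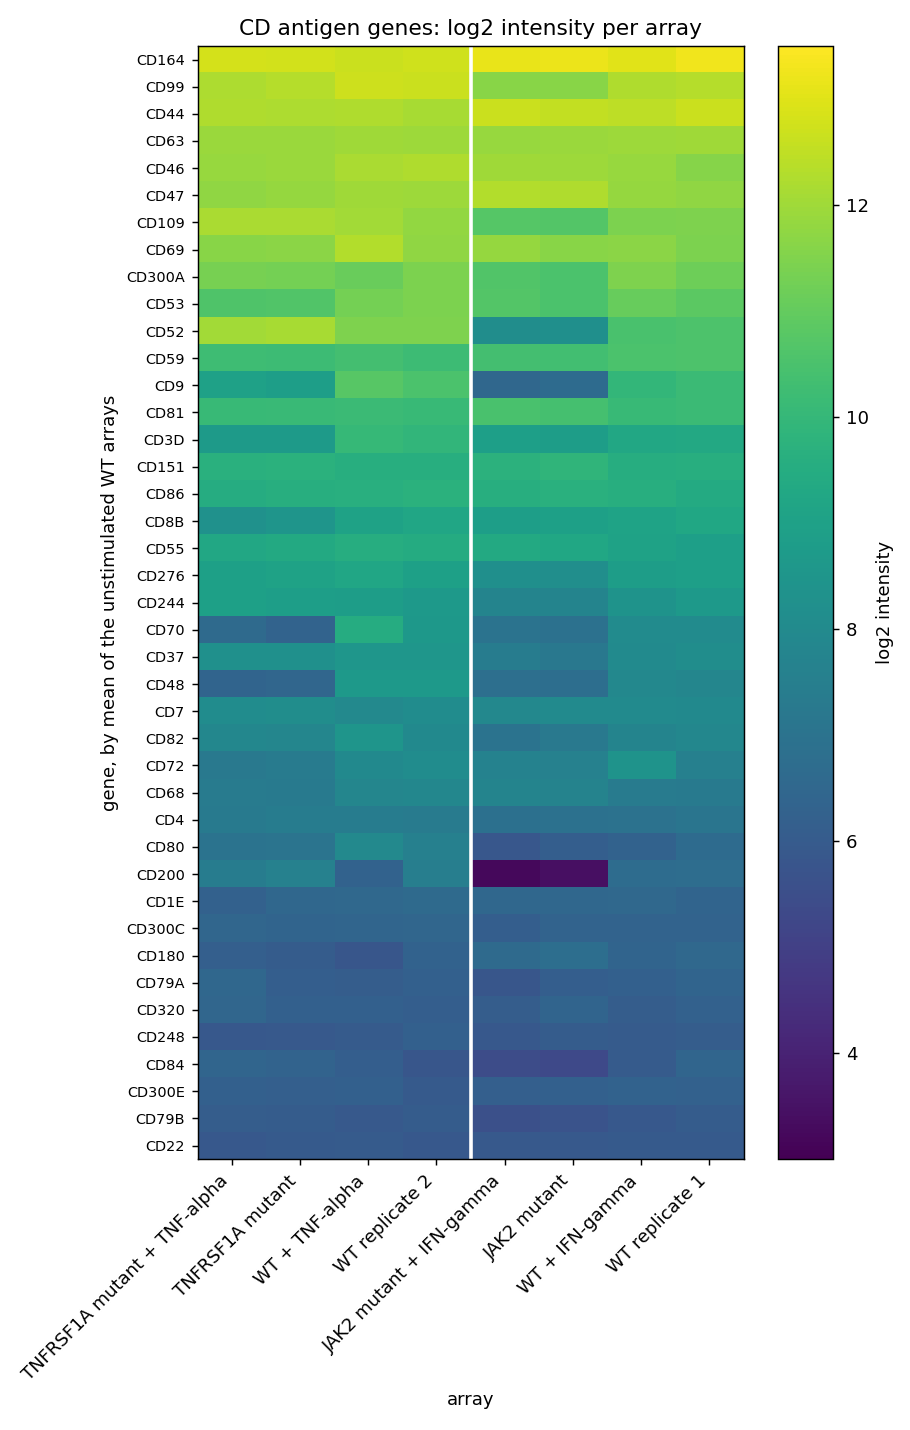
Log2 intensity (colour) of the 41 CD antigen genes whose highest value reached 6, in rows ordered by the mean of the unstimulated WT arrays, in each of the 8 arrays (columns); the white line parts the TNF-alpha experiment from the IFN-gamma experiment. Most rows keep 1 colour across the arrays, while CD52 and CD200 darken in the JAK2 mutant columns and CD9, CD70 and CD48 in those of both mutants.

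The label of a myeloid leukaemia line was set beside marker lists. Of 8 myeloid progenitor genes, 7 were measured and 4 were expressed in WT, with CEBPA at 8.26 and 7.43 and KIT at 7.95 and 8.23 on WT replicates 1 and 2, but SPI1 at 5.43 and 5.35. Of 6 T cell genes CD3D alone was expressed, of 5 measured B cell genes CD79A, CD79B and PAX5, and of 5 monocyte and macrophage genes CSF1R and CD68. PAX5, a transcription factor of B cells, read 9.31 and 9.54. Of 4 NK cell genes 3 were expressed, NKG7 at 8.32 and 8.36, KLRD1 at 6.40 and 6.48 and NCAM1 at 6.07 and 6.26. KLRD1, NCAM1 and CSF1R, at 6.27 and 6.24, were close to the background limits of 5.97 and 6.02. Of 4 megakaryocyte genes 1 was expressed, and the 1 measured erythroid gene was not. The targeted genes followed the labels. JAK2 read 5.08 and 5.32 in the unstimulated and stimulated JAK2 mutant, against 6.28 in WT replicate 1 and 6.81 in WT with IFN-gamma. Both mutant readings lay in the background range, with limits of 5.86 and 5.76, so the arrays only bound that fall. TNFRSF1A read 6.56 and 6.55 in the TNFRSF1A mutant without and with TNF-alpha, against 9.36 in WT replicate 2 and 9.23 in WT with TNF-alpha.

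Differences were taken between 2 arrays over the 11529 genes whose highest value reached 6, among them 41 of the 69 CD antigen genes. A gene was called from 2-fold upward, a log2 difference of 1. The other 28 members lay below 6 on every array and are given only where named. Over the 8 arrays, 14 of the 41 genes (34.1%) ranged over at least 1 log2 unit, against 12.8% of all genes compared, and 6 (14.6%) over at least 2, against 2.12%. The members were thus more variable than the genes at large, by a count without a test. Between the unstimulated WT arrays, which belong to different arms, the SD of the differences, taken over all genes compared, was 0.38. It was 0.22 for IFN-gamma in WT cells and 0.15 in JAK2 mutant cells, each against unstimulated cells of the same arm. For TNF-alpha it was 0.20 in WT and 0.12 in TNFRSF1A mutant cells. Between mutant and WT arrays of the same treatment it was 0.31 to 0.46.

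In the unstimulated JAK2 mutant, 6 of the 41 genes were at least 2-fold lower than in WT replicate 1 and 0 higher, where 1.91% of all genes compared were lower and 0.226% higher (2.13% in all). With IFN-gamma in both lines, 5 were lower and 0 higher, against 2.67% and 0.347% of all genes (3.02% in all). CD9, CD52, CD200, CD48 and CD70 were lower in both comparisons, and CD84 past 2-fold in the unstimulated one. The median difference of the 41 genes was -0.15 without and -0.22 with the cytokine, beside 0.03 for all genes in each. These 2 comparisons share no array.

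CD9, a tetraspanin gene of adhesion and platelets, read 6.67 and 6.50 in JAK2 mutant cells without and with IFN-gamma, against 10.16 in WT replicate 1 and 9.97 in WT with IFN-gamma. It was lower by 11.2-fold without and 11.1-fold with the cytokine (log2 -3.49 and -3.47). The mutant arrays stood at least 3.29 log2 units below all 4 WT arrays. Of its 9 probe sets, the 6 that rose above the background range in WT were each at least 2-fold lower in both comparisons. For 2 of the 6 the mutant values lay in the background range, which bounds their fall, and the other 4 had -3.68 to -2.09 between the unstimulated arrays and -3.90 to -1.74 between the stimulated ones. In a limma fit of the 7 conditions, which assumes that single arrays vary as the WT pair does, CD9 was -3.67 ± 0.26 (SE) from the WT mean with an adjusted p of 0.029, and between the stimulated arrays -3.47 ± 0.30 with an adjusted p of 0.047. It was the sole member past an adjusted p of 0.05 by limma in either comparison, where 0.165% and 0.182% of all genes passed. Of the 41, 12 without and 6 with IFN-gamma had an unadjusted p under 0.05, against 6.25% and 4.63% of all genes.

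**Figure D2:**
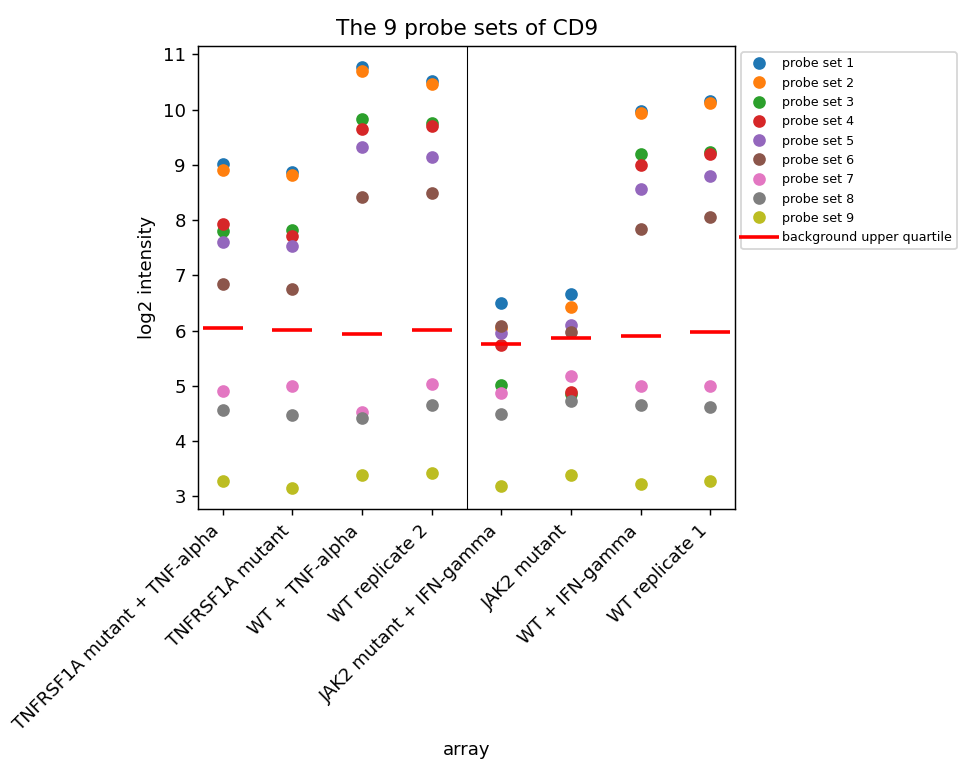
Log2 intensity of each of the 9 probe sets of CD9 (coloured points) in the 8 arrays, with the upper quartile of the background probe sets as red bars. The 6 probe sets above the bars in WT arrays are lower in both JAK2 mutant arrays and take intermediate values in both TNFRSF1A mutant arrays.

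CD52 read 8.22 and 8.14 in JAK2 mutant cells without and with IFN-gamma, against 10.57 in WT replicate 1 and 10.50 in WT with IFN-gamma. It was lower by 5.09-fold and 5.13-fold (log2 -2.35 and -2.36), and its other probe set gave -2.62 and -2.51. The mutant values stayed above the background range and at least 2.28 below all 4 WT arrays. By the limma fit the adjusted p was 0.150 against the WT mean.

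CD200, whose product restrains myeloid cells that carry its receptor, read 3.42 and 3.22 in JAK2 mutant cells without and with IFN-gamma, against 6.74 in WT replicate 1 and 6.71 in WT with IFN-gamma. The differences were -3.31 and -3.49. Since the mutant readings were within background, the arrays bound the fall only at 0.87 or more without and 0.95 or more with the cytokine. The limma fit gave adjusted p values of 0.0731 and 0.0845. The second CD200 probe set lay in the background range on all 8 arrays.

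CD70 read 6.93 and 7.0 in JAK2 mutant cells without and with IFN-gamma, against 8.08 in WT replicate 1 and 8.06 in WT with IFN-gamma (log2 -1.16 and -1.07). CD48, the GPI-anchored ligand of CD244, read 6.79 and 6.84 there, against 7.83 and 7.90 in the same WT arrays (-1.04 and -1.06). Both were just past 2-fold and stayed above the background range. By the mean of all probe sets, dim ones included, neither reached 2-fold, with -0.81 and -0.85 for CD70 and -0.48 and -0.44 for CD48. CD84, a homophilic receptor of the same SLAM family as CD48, read 5.33 in the unstimulated JAK2 mutant against 6.41 in WT replicate 1, a difference of -1.08 bounded at 0.55 by the background range, and another probe set of it, within that range, gave 0.08.

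Further members had negative differences that missed 2-fold against the WT array of the same treatment. CD244 had differences of -0.95 without and -0.64 with IFN-gamma, CD37, a tetraspanin gene of mature B cells, -0.93 and -0.64, CD109 -0.78 and -0.68, CD276 -0.73 and -0.59, CD99 -0.70 and -0.61, CD300A -0.68 and -0.82, and CD82 -0.62 and -0.72. CD99 gave -0.98 and -0.95 by its second probe set. CD3D had -0.50 and -0.39, but -1.26 and -0.77 by its second probe set. Against WT replicate 2, the unstimulated JAK2 mutant was past 2-fold for CD80 (-1.44, beside -0.53 against replicate 1), CD37 (-1.31), CD109 (-1.11), CD3D (-1.07) and CD99 (-1.03). At the other end, CD47 had 0.51 and 0.49, the largest positive values of the 41. In all, both JAK2 mutant arrays lay below all 4 WT arrays for 21 of the 41 genes (51.2%), against 20.1% of all genes compared, and above them for 4, against 29.1%. With a gap of at least 2-fold the readings gave 4, CD9, CD52, CD70 and CD200, against 1.18% of all genes, and 0 above by that gap, against 0.121%. With mutant values raised to the background limit, 3 remained, against 0.859% of all genes, since the gap of CD200 was then 0.43.

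The ratio of the 3' to the 5' actin probe sets, which rises as RNA is degraded, was 5.74 and 6.47 on the JAK2 mutant arrays without and with IFN-gamma, against 3.27 to 4.81 on the 4 WT arrays. The 7 measured myeloid progenitor genes had summed log2 levels of 47.2 and 47.4 on the JAK2 mutant arrays, against 43.4 to 45.5 on the WT arrays, and 2 of the 7, SPI1 and ELANE, lay below 6 throughout. Of the other 5, PRTN3, the proteinase 3 gene, was higher without and with IFN-gamma (1.46 and 1.82). Its readings of 5.35 in WT replicate 1 and 5.34 in WT with IFN-gamma lay in the background range, so the arrays only bound its rise. CEBPA and MPO were higher with IFN-gamma (1.04 each, beside 0.69 and 0.78 without). KIT had -0.70 and -0.13, and the GM-CSF receptor alpha gene CSF2RA -0.81 and -0.34. The 6 T cell genes summed to 32.1 to 32.9, against 33.5 to 33.9 in WT, where all but CD3D lay below 6 on all 8 arrays. Their part in these differences was not tested. In these bulk samples, fewer cells of a type and less RNA per cell cannot be told apart.

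In the unstimulated TNFRSF1A mutant, 4 of the 41 genes were at least 2-fold lower than in WT replicate 2, where 0.607% of all genes compared were, and 0 were higher, where 0.373% were (0.98% in all). With TNF-alpha in both lines the same 4 genes were lower, against 0.919% of all genes, and CD200 was higher, against 0.304% (1.22% in all). The 4 genes were CD70, CD48, CD9 and CD3D. The median difference of the 41 was -0.10 without and -0.13 with the cytokine, beside 0.04 and 0.01 for all genes.

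CD70 read 6.33 and 6.64 in TNFRSF1A mutant cells without and with TNF-alpha, against 8.58 in WT replicate 2 and 9.50 in WT with TNF-alpha. It was lower by 4.74-fold and 7.27-fold (log2 -2.24 and -2.86), and the larger value holds the reading of WT with TNF-alpha, the highest of the 8 arrays. CD48 read 6.46 and 6.40 in TNFRSF1A mutant cells without and with TNF-alpha, against 8.65 and 8.67 in the same WT arrays (-2.19 and -2.27). These 2 genes were the ones whose TNFRSF1A mutant arrays lay at least 2-fold below all 4 WT arrays, by 1.43 and 1.37, against 0.338% of all genes, and 0 lay above by that gap, against 0.0954%. Each rests on 1 probe set, since the second probe set of each lay in the background range.

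CD9 read 8.87 and 9.02 in TNFRSF1A mutant cells without and with TNF-alpha, against 10.52 in WT replicate 2 and 10.77 in WT with TNF-alpha (-1.64 and -1.74). The same 6 probe sets as above were each at least 2-fold lower, by -1.99 to -1.61 and by -2.03 to -1.56. CD3D read 8.74 and 8.71 there, against 9.90 and 10.03 (-1.17 and -1.32), and its second probe set gave -1.18 and -1.09. Against WT replicate 1 the unstimulated CD3D difference was -0.60. By the limma fit 0 members passed an adjusted p of 0.05 without or with TNF-alpha, where 0.0434% and 0.0347% of all genes did. In each, 6 members had an unadjusted p under 0.05, against 1.87% and 1.83% of all genes.

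CD52 read 12.11 and 12.04 in TNFRSF1A mutant cells without and with TNF-alpha, against 11.45 in WT replicate 2 and 11.49 in WT with TNF-alpha. The differences of 0.66 and 0.55 did not reach 2-fold, and both mutant arrays stood above all 4 WT arrays. Against WT replicate 1 the unstimulated difference was 1.54, past 2-fold. CD200 read 7.63 and 7.40 in the mutant without and with TNF-alpha, against 7.48 in WT replicate 2 and 6.29 in WT with TNF-alpha. Its difference was 0.15 without the cytokine and 1.11 with it, where the WT array read lowest of the 4 WT arrays. Of the other members, CD53 had -0.79 and -0.71, CD72 -0.76 and -0.76, CD8B -0.74 and -0.72, and CD80 -0.54 and -0.95.

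Both TNFRSF1A mutant arrays lay below all 4 WT arrays for 9 of the 41 genes (22%), against 12.4% of all genes compared, and above them for 5, against 15.2%. The actin ratio was 4.51 and 5.53 on these arrays without and with TNF-alpha, against 3.27 in WT replicate 2 and 4.81 in WT with TNF-alpha, and its part was not tested. The 7 myeloid progenitor genes summed to 44.9 to 45.4 in this mutant, against 43.4 to 45.5 in WT. CEBPA was higher without and with TNF-alpha (1.01 and 1.11), but it differed by -0.83 between the unstimulated WT arrays. It read 8.44 in the unstimulated mutant, against 8.26 in WT replicate 1. KIT had 0.09 and 0.58, PRTN3, in the background range on these arrays, 0.34 and 0.30, CSF2RA -0.62 and -0.24 and MPO -0.32 and -0.09. The 6 T cell genes summed to 32.8 to 33.3, against 33.5 to 33.9 in WT, again with CD3D alone above 6. CD9, CD48 and CD70 were the members called lower in both mutants. The 2 mutants were compared with different WT arrays.

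**Figure D3:**
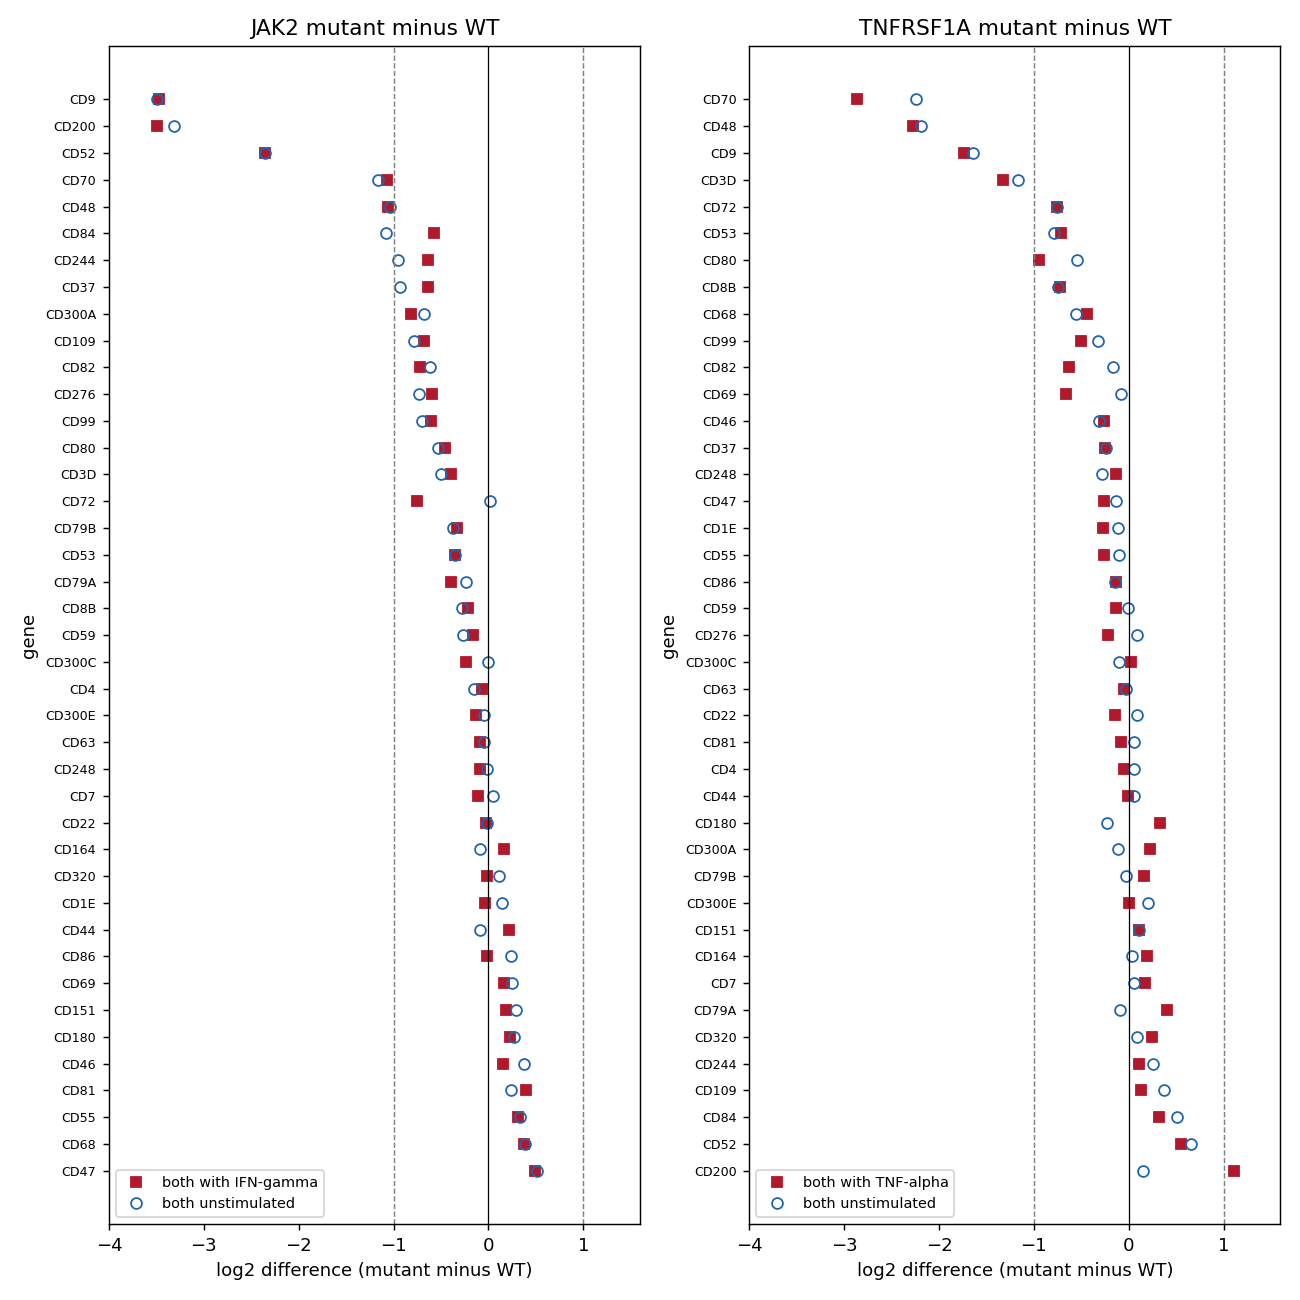
Log2 difference of mutant minus WT for the 41 CD antigen genes in the JAK2 mutant (left) and the TNFRSF1A mutant (right); squares are arrays with the cytokine, circles unstimulated arrays, and dashed lines mark 2-fold. CD9, CD200 and CD52 lie farthest left in the JAK2 mutant, at -2.35 or below, and CD70 and CD48 in the TNFRSF1A mutant, at -2.19 or below.

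**Figure D4:**
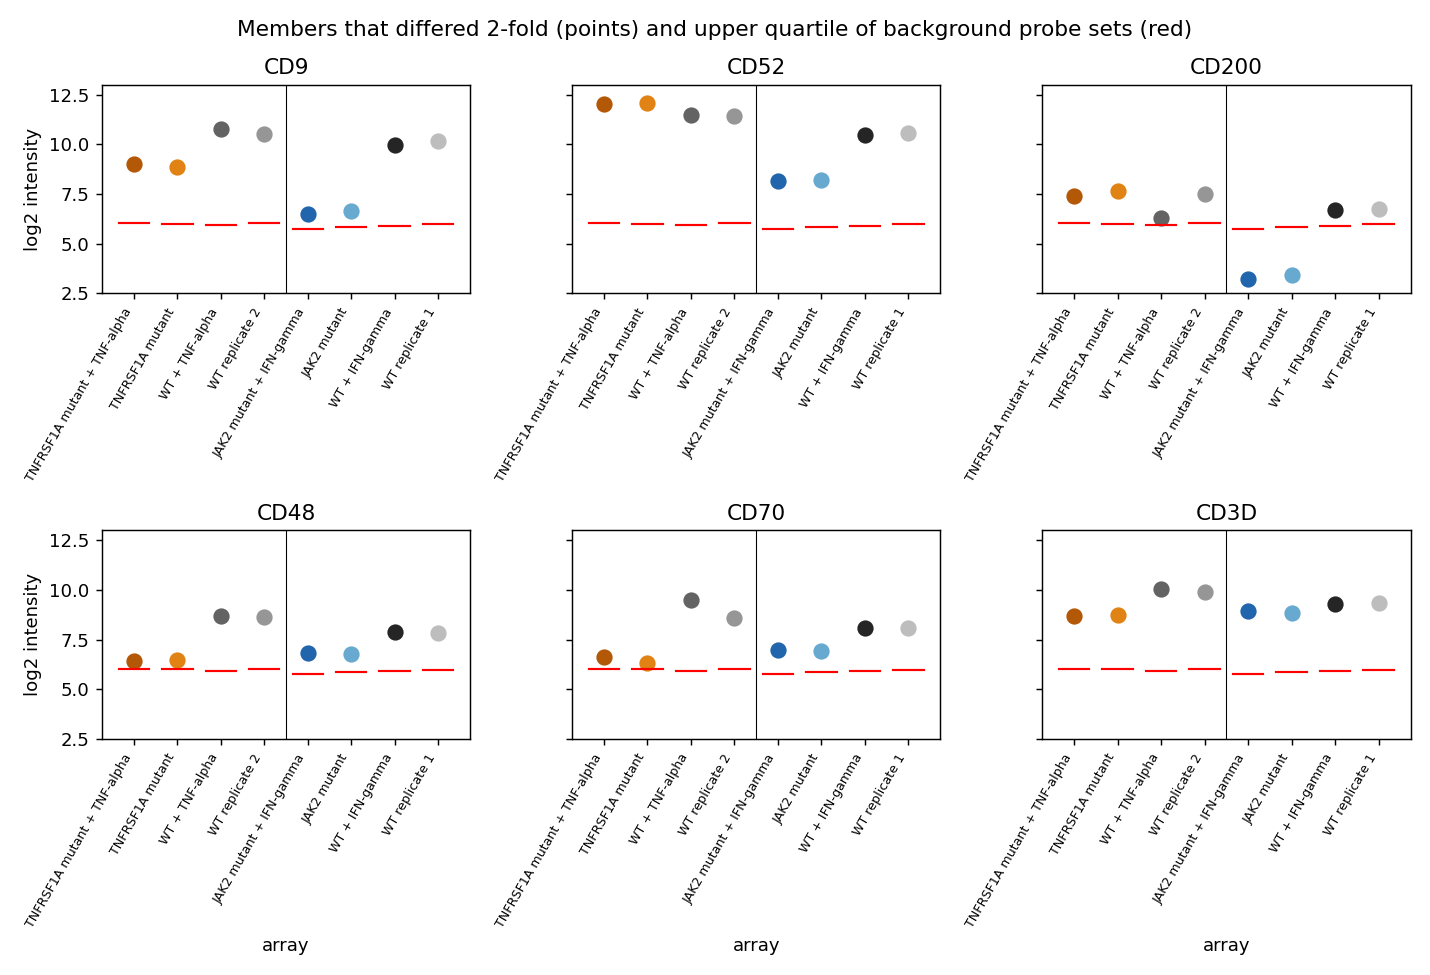
Log2 intensity of CD9, CD52, CD200, CD48, CD70 and CD3D on each of the 8 arrays (points), with the upper quartile of the background probe sets of each array as a red bar. CD200 falls below the bar on both JAK2 mutant arrays alone, and CD70 is highest in WT with TNF-alpha at 9.50.

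Promoters are shown for CD200 and CD52, which were lower in the JAK2 mutant, and CD48, lower in both mutants, each with 1 start in the RefSeq-derived table (GRCh38.p14). The table had 4 starts for CD9, of which the arrays single out none, and CD3D, with 1 start, CD70 and CD84 are named only. Each sequence is the 250 bases before the gene's start, 5' to 3' on the gene's strand, with CG dinucleotides, the sites of DNA methylation, in capitals. CD200 lies on the plus strand (chr3:112332906-112333155), CD52 on the plus strand (chr1:26317708-26317957) and CD48 on the minus strand (chr1:160711823-160712072).
CD200: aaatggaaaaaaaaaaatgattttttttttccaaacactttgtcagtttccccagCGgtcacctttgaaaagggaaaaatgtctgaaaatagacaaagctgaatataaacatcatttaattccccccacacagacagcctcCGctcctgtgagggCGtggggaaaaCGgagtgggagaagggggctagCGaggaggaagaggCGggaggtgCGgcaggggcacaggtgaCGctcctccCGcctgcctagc
CD52: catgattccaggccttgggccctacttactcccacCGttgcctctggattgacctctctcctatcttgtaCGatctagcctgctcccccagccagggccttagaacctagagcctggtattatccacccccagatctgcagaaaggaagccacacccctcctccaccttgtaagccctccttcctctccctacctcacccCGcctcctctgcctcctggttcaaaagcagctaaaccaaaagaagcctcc
CD48: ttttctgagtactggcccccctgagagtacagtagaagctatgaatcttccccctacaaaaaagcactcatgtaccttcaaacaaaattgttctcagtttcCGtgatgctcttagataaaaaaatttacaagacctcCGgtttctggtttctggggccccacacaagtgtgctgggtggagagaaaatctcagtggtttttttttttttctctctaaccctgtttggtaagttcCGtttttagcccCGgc

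The CD200 promoter held 9 CG dinucleotides, that of CD52 3 and that of CD48 4, where the median of 35116 promoters in the table was 11. Their GC contents were 50.0%, 56.4% and 43.2%, and the median was 58.0%. On both strands, 0 of the 3 held a kappaB-like match (GGG and CC with any 5 bases between, present in 54.4% of all promoters of this length), a gamma-activated site (TTCNNNGAA, 6.6%) or an interferon-response-like match (GAAA repeated with any 2 bases between, 3.0%). No methylation or binding was measured, and a lack of these letters says nothing beyond this window.

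IFN-gamma moved 0 of the 41 CD antigen genes by 2-fold in WT cells, where 0.607% of all genes compared rose and 0% fell, and 0 in JAK2 mutant cells, where 0% of all genes changed. By limma 0 members passed in either line at an adjusted p of 0.05 or at an unadjusted one, the unadjusted shares of all genes being 1.28% and 0.0954%. CD72 had the highest value in WT, 8.41 with IFN-gamma against 7.59 in WT replicate 1, a difference of 0.82. Its difference in JAK2 mutant cells was 0.05, with 7.66 in stimulated and 7.61 in unstimulated cells. WT replicate 2, unstimulated, read 8.11, so that the CD72 value was 0.30 with that array as control. The other 40 genes were within 0.5 log2 units in WT cells, where 1.87% of all genes compared were above that limit and 0.312% below. All 41 were within it in JAK2 mutant cells, where 0.312% of all genes were above and 0.434% below. CD274, often used as a reading of IFN-gamma, stayed in the background range at 5.39 in WT with IFN-gamma against 5.38 in WT replicate 1, and CD38, another such gene, read 3.68 against 3.86.

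TNF-alpha lowered 1 of the 41 genes in WT cells, CD200, where 0.00867% of all genes compared were lowered. That share is 1 gene of 11529, CD200 itself, so it is no independent reference for this count. TNF-alpha raised 0 of the 41, where 0.312% of all genes rose (0.321% changed in all). CD200 read 6.29 in WT with TNF-alpha against 7.48 in WT replicate 2, a 2.27-fold difference (log2 -1.18) with both values above the background range. The unstimulated WT arrays themselves differed by 0.74 for CD200. Against WT replicate 1, which belongs to the IFN-gamma arm and read 6.74, the difference was -0.44. By the mean of both CD200 probe sets the difference from WT replicate 2 was -0.71, which also misses 2-fold. By that mean the difference of 1.11 in the TNFRSF1A mutant with TNF-alpha was 0.67. WT with TNF-alpha was still the lowest of the 4 WT arrays. In the TNFRSF1A mutant CD200 read 7.40 with TNF-alpha against 7.63 without, a difference of -0.22. The limma fit gave WT cells a difference of -0.81 ± 0.36 (SE) from the mean of the unstimulated WT arrays and an adjusted p of 1.00, so the difference did not pass that fit. In WT cells 0 members passed it and 3 had an unadjusted p under 0.05, against 0.98% of all genes, and in TNFRSF1A mutant cells 0 passed either.

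CD70 had the highest value with TNF-alpha, 9.50 in WT with TNF-alpha against 8.58 in WT replicate 2, a difference of 0.92 that missed 2-fold and was 1.41 against WT replicate 1. Its dim second probe set read 5.15 against 3.63 there. In the TNFRSF1A mutant CD70 had a difference of 0.31. Next stood CD69 at 0.55 and CD82 at 0.52, with -0.03 and 0.07 in the mutant, and CD80 at 0.35, with -0.06 in the mutant. CD70, CD69 and CD82 are the 3 members counted above for TNF-alpha in WT cells by the limma fit, and CD200 is not among them. From the mean of the unstimulated WT arrays that fit gave them differences of 1.17, 0.71 and 0.58. Of the 41 genes, 37 were within 0.5 log2 units in WT cells, with 3 above that limit and 1 below. Of all genes compared, 1.56% were above it and 0.165% below. In TNFRSF1A mutant cells all 41 were within it, where 0.104% of all genes were above and 0.0347% below. There 0 members were called, and 0% of all genes changed by 2-fold. The differences between WT and mutant responses were not tested.

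**Figure D5:**
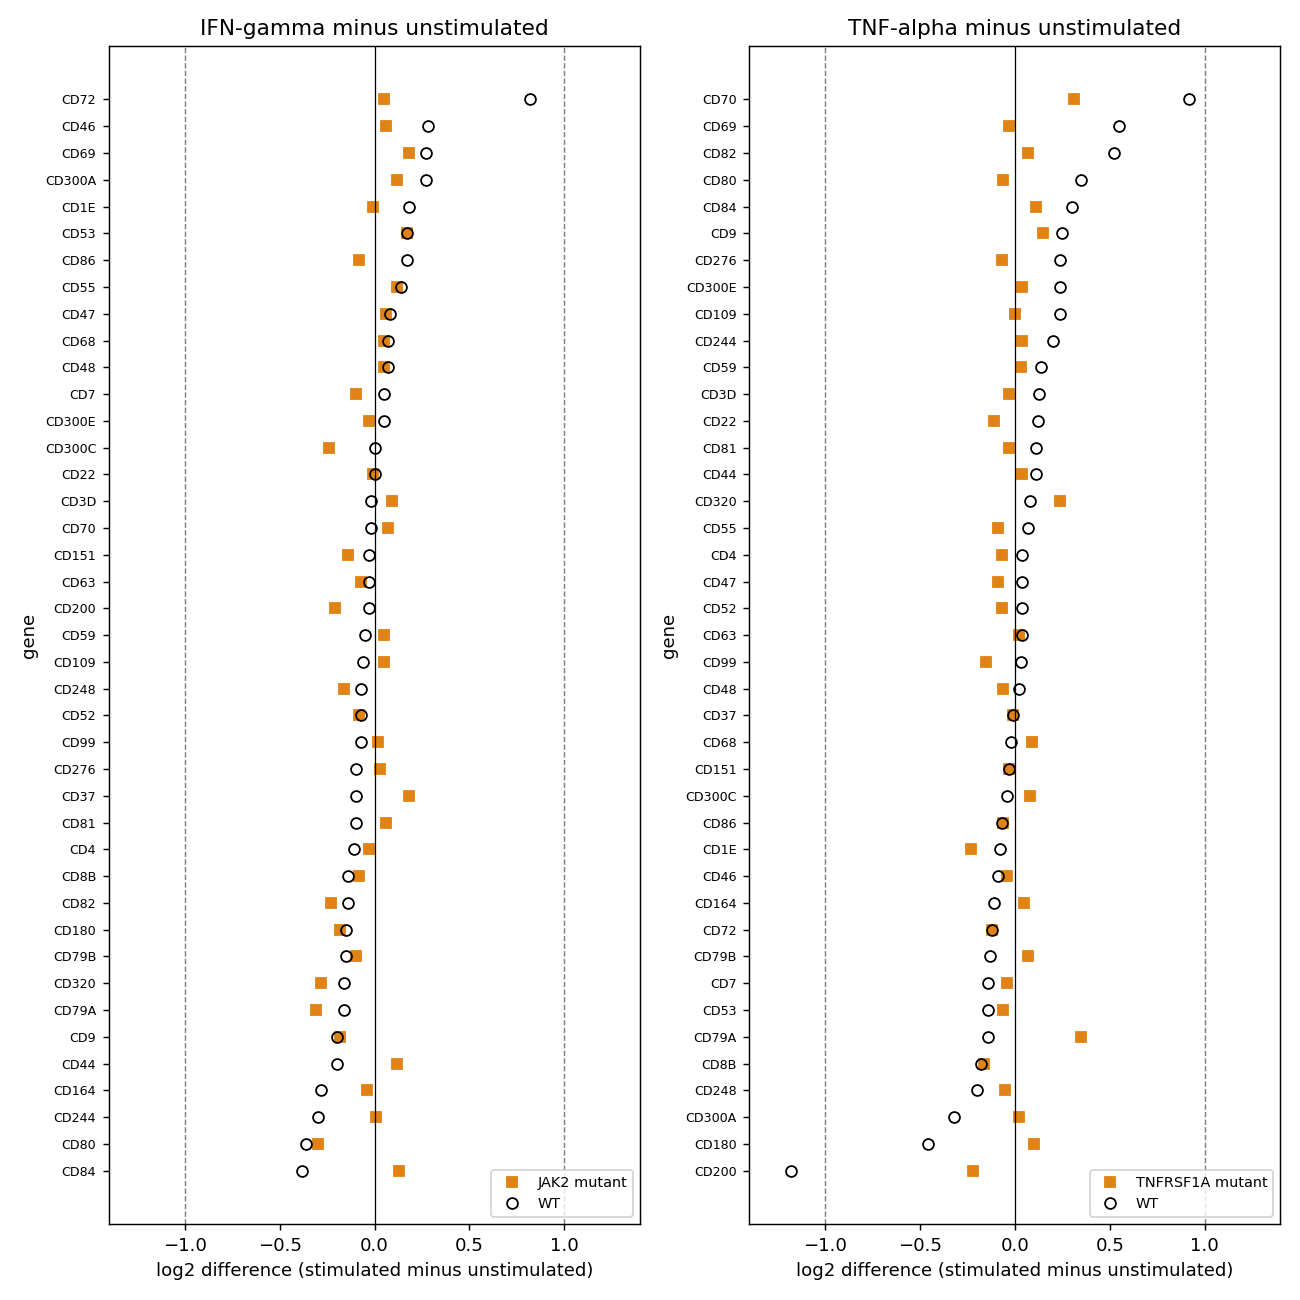
Log2 difference of stimulated minus unstimulated arrays for the 41 CD antigen genes with IFN-gamma (left) and TNF-alpha (right); squares are the mutant, circles WT, and dashed lines mark 2-fold. CD200 with TNF-alpha in WT, at -1.18, is the single point past a dashed line, and CD72 (0.82) and CD70 (0.92) lead the other direction.

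The 2 unstimulated WT arrays gave 0 calls among the 41 genes, where 1.99% of all genes compared differed 2-fold, 0.954% higher and 1.03% lower in replicate 2. WT replicate 2 read higher than replicate 1 for 28 of them, with a median of 0.22 beside -0.04 for all genes. CD80 differed by 0.91, CD52 by 0.88, CD48 by 0.82 and CD200 by 0.74, and CD84 by -0.59.

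The genes whose pattern over the 8 arrays was most like that of CD200, among all genes compared, were ATL1 (Pearson r = 0.993), TCEAL3 (0.991), PREX1 (0.988), RPL23A (0.988) and NFYC (0.987). Among the members CD79B (0.966), CD52 (0.957) and CD300A (0.953) came nearest. The 8 arrays come from 3 cell lines, and CD200 was low on both arrays of 1 of them, so these values describe mainly that pair. ATL1, a GTPase gene of the endoplasmic reticulum, read 5.77 and 5.74 in JAK2 mutant cells without and with IFN-gamma, against 6.82 to 7.10 over the 4 WT arrays. Both mutant readings lay in the background range, as those of CD200 did, with limits of 5.86 and 5.76. The arrays thus only bound the fall of ATL1.

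Leukocyte antigens with other official symbols were listed for comparison, of which 42 of 45 were measured and 38 were compared. In the unstimulated JAK2 mutant 4 of the 38 were lower than in WT replicate 1 and 0 higher, where 1.91% and 0.226% of all genes compared were. With IFN-gamma in both lines 4 were lower and 0 higher, against 2.67% and 0.347%, with FCGR1A (-2.25) in place of CSF2RB (-0.86). CXCR4, the chemokine receptor that holds progenitors in marrow, had -2.19, the integrin alpha M gene ITGAM -1.61, CSF2RB, the common beta chain of the GM-CSF, IL-3 and IL-5 receptors, -1.22 and the IL-3 receptor alpha gene IL3RA -1.16. In the unstimulated TNFRSF1A mutant, where 0.607% of all genes were lower and 0.373% higher, ITGAM was lower, by -1.42, and FCGR1A higher, by 1.08. ITGAM read 4.96 there, against 6.38 in WT replicate 2 and a background limit of 6.01. On the JAK2 mutant arrays it read 5.30 and 5.25, also in the background range, so the arrays only bound its fall in both mutants. FCGR1A, the high-affinity IgG receptor gene, differed by -0.99 between the unstimulated WT arrays. FCGR1A was also the 1 gene of the 38 that IFN-gamma raised 2-fold in WT cells, where 0.607% of all genes compared rose. It read 9.80 against 8.10 in WT replicate 1, and it had 0.17 in JAK2 mutant cells. TNF-alpha moved 0 of the 38 by 2-fold in WT cells, where 0.321% of all genes changed. With 38 genes and shares this small, neither count shows a response of these antigens or a lack of one. CXCR4 differed by 1.73 between the unstimulated WT arrays.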

How the data were processed

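Total RNA was amplified with a 3' IVT kit and read on 1 Affymetrix array per sample, per the labels. What the authors deposited is an intensity for each of 49395 probe sets. The submitters' processing notes name RMA and the Affymetrix software Expression Console 1.1. The linear scale was inferred from array medians of 63.9 to 66.9, and log2 was taken here. Arrays normalized this way have similar distributions, so a change shared by most genes is not visible. Precision is limited by how few arrays there are. Of the probe sets, 44994 have 1 gene in the platform annotation, 1832 several and 2569 are not listed there. Symbols were updated through gene identifiers (RefSeq, GRCh38.p14), and no build was given for the array annotation.

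Differences are single arrays against single arrays, called at 2-fold without p-values, since 6 of the 7 conditions have 1 array. Nothing says that the WT arrays came from separate cultures, so their spread may be technical. They belong to different arms, so it also holds any difference between the arms, and these cannot be told apart. A limma 3.58.1 fit (R 4.3.3, residual df 1, Benjamini-Hochberg over 11529 genes, threshold 0.05) served as an alternative and was tested on simulated data. Named members are the 12 with the highest WT level, all that differed 2-fold, CD200, those next to the level of 6 and up to 4 per role. Further members and single markers were named after their values were seen. The members, roles, lists and level were chosen with earlier results of these data known. Alternatives were 1.5-fold, other level limits, other probe set rules, loess (span 0.3), the other WT array and limma. Rules using both WT arrays or the background bound, also for gaps and CD9 probe sets, were added after seeing the data. Some listed genes are not analysed here.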

Additional observations from a re-analysis of the deposited data

Results flagged for a closer look

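CD52 and CD200 had differences of opposite sign in the 2 mutants on both arrays of each, and the difference between the mutants was not tested. CD52 had -2.35 in the JAK2 mutant without and -2.36 with IFN-gamma, and 0.66 in the TNFRSF1A mutant without and 0.55 with TNF-alpha, each against WT cells of the same treatment. CD200 had -3.31 and -3.49 in the JAK2 mutant, with both mutant values in the background range, and 0.15 and 1.11 in the TNFRSF1A mutant. Of the positive values, the 1.11 of CD200 alone reached 2-fold, and its 0.15 is smaller than the 0.74 between the unstimulated WT arrays.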

How the results depend on the processing

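At 1.5-fold, more of the 41 genes were called: 13 in the JAK2 mutant without and 13 with IFN-gamma, 8 in the TNFRSF1A mutant without and 11 with TNF-alpha, 1 in WT with IFN-gamma (CD72), 2 in WT with TNF-alpha and 6 between the WT arrays. The shares of all genes at 1.5-fold were 6.16%, 8.35%, 3.83%, 3.76%, 1.52%, 1.17% and 11.2% in the same order. As the mean of all probe sets, 3 genes (CD9, CD52 and CD200) differed in the JAK2 mutant without and 3 with IFN-gamma, and CD70 in place of CD200 was called in WT with TNF-alpha. A level of at least 8 left 0 in WT with TNF-alpha, where CD200 was no longer compared. With the other WT array as control the counts were 10 for the JAK2 mutant, 4 for the TNFRSF1A mutant (CD52, higher, in place of CD3D), 1 for WT with IFN-gamma (CD80, lower) and 2 for WT with TNF-alpha (CD70 and CD80, higher, without CD200). The other WT array belongs to the other arm, and the unstimulated WT arrays differed 2-fold for 1.99% of all genes compared. A call against both WT arrays, added after seeing the data, left 0 in WT with TNF-alpha. The background bound left 4 in the JAK2 mutant without and 4 with IFN-gamma. For the counts after those at 1.5-fold up to here, no share of all genes was taken. These counts therefore do not show how the members stand beside all genes. The limma fit called 1 gene in the JAK2 mutant without and 1 with IFN-gamma, 0 in TNF-alpha-treated WT, and 0 in the TNFRSF1A mutant without and with TNF-alpha, where 12, 6, 3, 6 and 6 had an unadjusted p under 0.05. In the remaining 3 comparisons it could make it called 0, with 0 at an unadjusted p under 0.05. The cause of these changes was not tested, beyond fewer genes compared at the higher level.

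The number of expressed genes was 40, with 31 at a level of 7, 54 at 5, 29 by the mean of probe sets, 36 without probe sets marked _x_at, and 38 and 40 without WT replicate 1 and 2. Above the background range on both unstimulated WT arrays were 38. CD84 at 5.82 and CD300E at 5.97 lay below the limit of 6.02 on WT replicate 2. The fall of CD84 reversed to 0.08 without its _x_at probe set. Of 74 recomputed differences of called genes, 63 were still 2-fold and this was the sole reversal. Leaving out _x_at probe sets could change only CD84, so 20 of the 21 differences under that rule repeat the main values. Still 2-fold were 21 of 21 by loess, 14 of 21 by the mean of all probe sets, and 5 of 6 and 3 of 5 without WT replicate 1 and 2. No paired analysis was possible because no 2 groups share 2 replicate numbers.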

Other observations

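Below the level of 6, CD36, the fatty acid and thrombospondin receptor gene, read 4.84 and 5.10 in TNFRSF1A mutant cells without and with TNF-alpha, against 4.15 in WT replicate 2 and 3.88 in WT with TNF-alpha, differences of 0.69 and 1.22. Its probe set ending in s_at read 4.87 and 4.46 there, against 3.66 and 3.55. CD24, a heavily glycosylated GPI-anchored antigen gene, read 3.85 and 3.71 in the TNFRSF1A mutant without and with TNF-alpha, against 4.86 and 4.57 in the same WT arrays, and 3.89 and 3.87 in the JAK2 mutant without and with IFN-gamma, against 4.72 in WT replicate 1 and 4.43 in WT with IFN-gamma. All these values lay in the background range.

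FLT3, the receptor gene of a growth factor of progenitors, read 7.67 and 7.66 in the TNFRSF1A mutant without and with TNF-alpha, against 6.68 in WT replicate 2 and 6.48 in WT with TNF-alpha, differences of 0.99 and 1.18.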
